A study of Homo sapiens with 6 samples.

Results

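The *HOX* genes of a chordoma line were examined, taking all genes whose symbol is HOXA, HOXB, HOXC or HOXD with a number and which had a probe set naming that gene alone. This gave 27 of 18404 genes with such a probe set, 1 from *HOXA*, 10 from *HOXB*, 7 from *HOXC* and 9 from *HOXD*, each with 1 probe set. The RefSeq table lists 39 *HOX* genes; the other genes were not analysed here, among them all genes of *HOXA* except *HOXA2*. 1 further probe set names both *HOXC4* and *HOXC6* and was below the expression floor in all 6 arrays.

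*HOX* genes encode homeodomain transcription factors that stand in 4 clusters, *HOXA* to *HOXD*, and are numbered by paralog group from the 3′ to the 5′ end of a cluster. During development genes of low number are switched on early and towards the head, genes of high number later and towards the tail, so that the set of active *HOX* genes records a cell's position along the body axis. In the mouse, genes of paralog groups 10 and 11 pattern the lumbar and sacral spine and those of group 13 the tail end of the body, the digits and the lower gut and urogenital tract.

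The cells belong to MUG-Chor1, a line grown from a chordoma of the sacrum and coccyx. Chordomas resemble the notochord, the embryonic rod around which the spine forms. All pools share this 1 line, its culture medium and its release by trypsin, and none was treated otherwise. Each array held amplified cDNA from 20 cells, either large physaliferous cells, which are filled with vacuoles (3 pools, numbered 2, 3 and 4), or small cells without vacuoles (3 pools, numbered 5, 6 and 7). Whether the pools stem from more than 1 culture is not stated, and the p-values reflect pool-to-pool spread alone, which may be technical. All values are log2 expression after robust multi-array averaging.

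In MUG-Chor1 cells of both phenotypes most *HOX* genes lay below the 95th percentile of olfactory receptor genes, as did most of all genes. Olfactory receptor genes are largely silent outside sensory tissue and give a measure of background. The median of the *HOX* genes was 6.21 to 6.72 over the arrays, and in each array above that of the olfactory receptor genes (5.86 to 6.07). The expression floor was log2(100), that is 6.64, and 6 of 27 *HOX* genes (22.2%) lay above it in all 6 arrays, whereas 43.4% of all 18404 genes did. These were *HOXA2*, *HOXB7*, *HOXD1*, *HOXD4*, *HOXD9* and *HOXD13*. A further 10 genes were above the floor in some arrays and 11 in none, where 30.4% of all genes were in none. The floor stands close to the median of the probe sets of each array. Of the olfactory receptor genes 30 of 340 (8.82%) were above it in all 6 arrays. With the 95th percentile of the olfactory receptor genes in each array as a stricter limit, 7.34 to 7.58, 18.9% of all genes and 1 *HOX* gene, *HOXB7*, passed in all 6 arrays. Probe sets differ in how well they bind, so that levels are read against these limits and not ranked between genes.

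**Figure D1:**
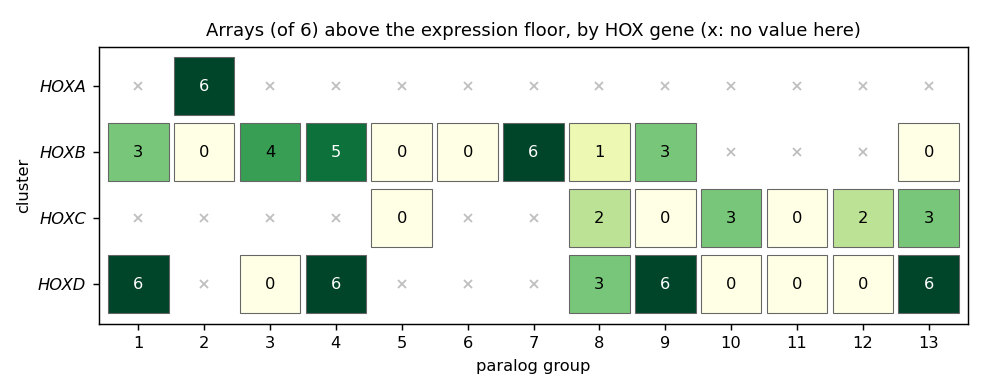
Number of arrays (of 6) above the expression floor for each measured *HOX* gene, with clusters in rows and paralog groups along the horizontal axis. A cross marks a position with no value here, either a gene not analysed or a position where RefSeq lists no gene. The genes above the floor in all 6 arrays are scattered over the *HOXA*, *HOXB* and *HOXD* rows, with none in *HOXC*.

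At the expression floor used here, the genes above it in all arrays did not form a continuous block along a cluster. In *HOXD*, which had 9 measured genes, *HOXD1*, *HOXD4*, *HOXD9* and *HOXD13* were above the floor in all 6 arrays, whereas *HOXD3*, *HOXD10*, *HOXD11* and *HOXD12* were above it in none and *HOXD8* in 3. In *HOXB*, *HOXB7* was above the floor in all arrays, while its neighbours *HOXB6* and *HOXB8* were above it in 0 and 1 arrays. *HOXB4* was above it in 5 arrays, *HOXB3* in 4, *HOXB1* and *HOXB9* in 3, and *HOXB2*, *HOXB5* and *HOXB13* in none. In *HOXC*, 0 of 7 genes were above the floor in all arrays. *HOXC10* and *HOXC13* were above it in 3 arrays, *HOXC8* and *HOXC12* in 2, and *HOXC5*, *HOXC9* and *HOXC11* in none. The pattern along the clusters rested on the floor. With log2(50), passed in all arrays by 79.3% of all genes, *HOXC8* to *HOXC13* formed an unbroken run of measured genes. So did *HOXD1*, *HOXD3*, *HOXD4*, *HOXD8* and *HOXD9*. Gaps remained at *HOXD10* and *HOXD12* and at *HOXB2*, *HOXB5* and *HOXB6*. Since probe sets differ in how well they bind, a gap does not show that a gene was silent.

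By paralog group, 3 of 8 measured genes of groups 1 to 4, 1 of 7 of groups 5 to 8 and 2 of 12 of groups 9 to 13 were above the floor in all arrays. For the groups that mark the lumbar, sacral and caudal levels, 10 to 13, the count was 1 of 9, namely *HOXD13*, and 0 of 9 passed the olfactory receptor limit in all arrays. Groups 10 and 11 alone are those of the lumbar and sacral spine. Above the floor in all arrays were 0 of 2 measured genes of group 10 and 0 of 2 of group 11. With a floor of log2(50), *HOXC10*, *HOXC11* and *HOXD11* were above it in all arrays, as were 79.3% of all genes, and *HOXD10* was not. These counts rest on the floor and thus do not settle whether the cells carry a sacral positional code. *HOXA10*, *HOXA11* and *HOXA13* were not analysed here, and a gene below the floor may be expressed below what these arrays detect. The line itself carried its identity markers: 8 of 8 chordoma and notochord genes, among them brachyury (*TBXT*), *KRT8*, *KRT19* and *ACAN*, passed the olfactory receptor limit in all 6 arrays. Of the markers of other cells, the endothelial genes *PECAM1*, *CDH5* and *VWF* and the blood genes *PTPRC* and *HBB* were above the floor in 0 arrays, while *CD68* and the fibroblast genes *THY1* and *COL1A1* were above it in all, *LUM* in 3 arrays and *PDGFRA* and *DCN* in 0. The mean level of the 5 fibroblast markers was 6.69 to 6.90 in the large pools and 7.02 to 7.47 in the small pools, that of the 3 endothelial markers 5.76 to 5.94 in large and 6.07 to 6.12 in small pools, and that of the 3 blood markers 6.39 to 6.63 in large and 6.25 to 6.48 in small pools. The fibroblast and endothelial levels were thus lower in all large pools. Of all genes 66.4% had a lower mean in large cells, and of those with a mean at or below the floor 73.8%. The part of the marker levels in the *HOX* differences was not tested.

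*HOXB7*, a gene of trunk level in the middle of its cluster on chromosome 17 (probe set 8016468), had values of 7.99, 8.25 and 7.96 in the large pools and of 8.03, 7.98 and 8.01 in the small pools. As deposited the phenotypes overlapped, and every pool lay above the olfactory receptor limit of its array. The means were 8.07 ± 0.16 in large and 8.01 ± 0.03 in small cells (SD, n = 3 pools each), a log2 fold change of 0.06 with a 95% confidence interval of -0.21 to 0.33. Without large pool 3, the highest, the log2 fold change was -0.033. With all pools and centred arrays it was 0.14, and the large pools then lay above the small pools without overlap.

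*HOXA2*, which patterns the hindbrain and the second pharyngeal arch, lies on chromosome 7 (probe set 8138718). It had 8.35, 7.63 and 7.67 in the large pools, against 7.25, 6.93 and 7.62 in the small pools. All large pools were above all small pools, though the lowest large and the highest small pool were close to each other. Of the *HOX* genes it had both the widest spread within a phenotype (pooled SD 0.38) and the largest difference, the log2 fold change being 0.62 ± 0.26 (standard error) with an interval of -0.02 to 1.25 and a limma adjusted p of 0.337. Without large pool 2 the log2 fold change was 0.38. The olfactory receptor limit was passed in 4 of 6 arrays.

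TGATTNAT is a form of the sites that a HOX protein can share with PBX, and other forms were not searched. TGATTNAT was searched on both strands in the 250 bases before the start of 11 *HOX* genes with a single promoter entry in RefSeq (GRCh38.p14). The 35116 windows used as background also took in genes with several entries, and 2.48% of them held the letters. Of the 11 *HOX* genes 2 held them. They were *HOXA2*, above the floor in all arrays, and *HOXD11*, above it in none, and both windows held the same 8 letters, shown in capitals.
HOXA2, chr7:27102684-27102933, minus strand: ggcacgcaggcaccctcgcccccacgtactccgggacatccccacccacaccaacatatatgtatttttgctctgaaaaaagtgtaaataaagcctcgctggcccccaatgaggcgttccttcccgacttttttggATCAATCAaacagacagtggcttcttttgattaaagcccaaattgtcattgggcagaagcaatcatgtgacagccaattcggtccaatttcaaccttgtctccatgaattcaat
HOXD11, chr2:176107030-176107279, plus strand: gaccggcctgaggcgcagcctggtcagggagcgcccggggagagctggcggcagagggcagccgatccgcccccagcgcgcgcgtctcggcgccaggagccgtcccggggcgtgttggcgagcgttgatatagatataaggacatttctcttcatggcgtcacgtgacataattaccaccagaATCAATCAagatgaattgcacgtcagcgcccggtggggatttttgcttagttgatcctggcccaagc
The letters start 114 bases before the start of *HOXA2* and 67 bases before that of *HOXD11*. A match of letters is a description only. TATAAA, the TATA box, was found in 1 of the 11 windows, *HOXD13*, and in 10.7% of all windows. TTTATG, a motif of the CDX factors, was found in 1 of the 11 windows, *HOXD8*, and in 9.64% of all windows. The promoters of the 4 genes above the floor in all arrays held a median of 14.5 CpG dinucleotides (range 4 to 31) and the other 7 a median of 21 (range 7 to 28), with 11 over all windows.

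On chromosome 2 the 4 *HOXD* genes above the floor all had lower means in large cells. *HOXD1*, at the 3′ end of the cluster, had 6.89, 6.91 and 7.14 in the large pools, against 7.22, 7.18 and 7.23 in the small pools. Its phenotypes did not overlap as deposited but did with centred arrays. *HOXD4*, a gene of hindbrain and neck level, had 7.29, 7.31 and 7.43 in the large pools, against 7.71, 7.57 and 7.51 in the small pools. This left no overlap, and *HOXD4* passed the olfactory receptor limit in 3 arrays, all of small pools.
*HOXD9*, from the part of the cluster active in the lower trunk and limbs, had 7.23, 7.30 and 7.06 in large pools and 7.49, 7.21 and 7.27 in small pools. *HOXD13*, which shapes the digits and in which mutations cause synpolydactyly, had 7.12, 6.91 and 7.24 in large pools and 7.34, 7.68 and 7.20 in small pools. For both of these the phenotypes overlapped. Log2 fold changes were -0.23 for *HOXD1*, -0.26 for *HOXD4*, -0.12 for *HOXD9* and -0.31 for *HOXD13*. That of *HOXD9* was -0.040 without small pool 5, -0.055 without large pool 4 and -0.040 with centred arrays, and that of *HOXD13* was -0.18 without small pool 6.

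**Figure D2:**
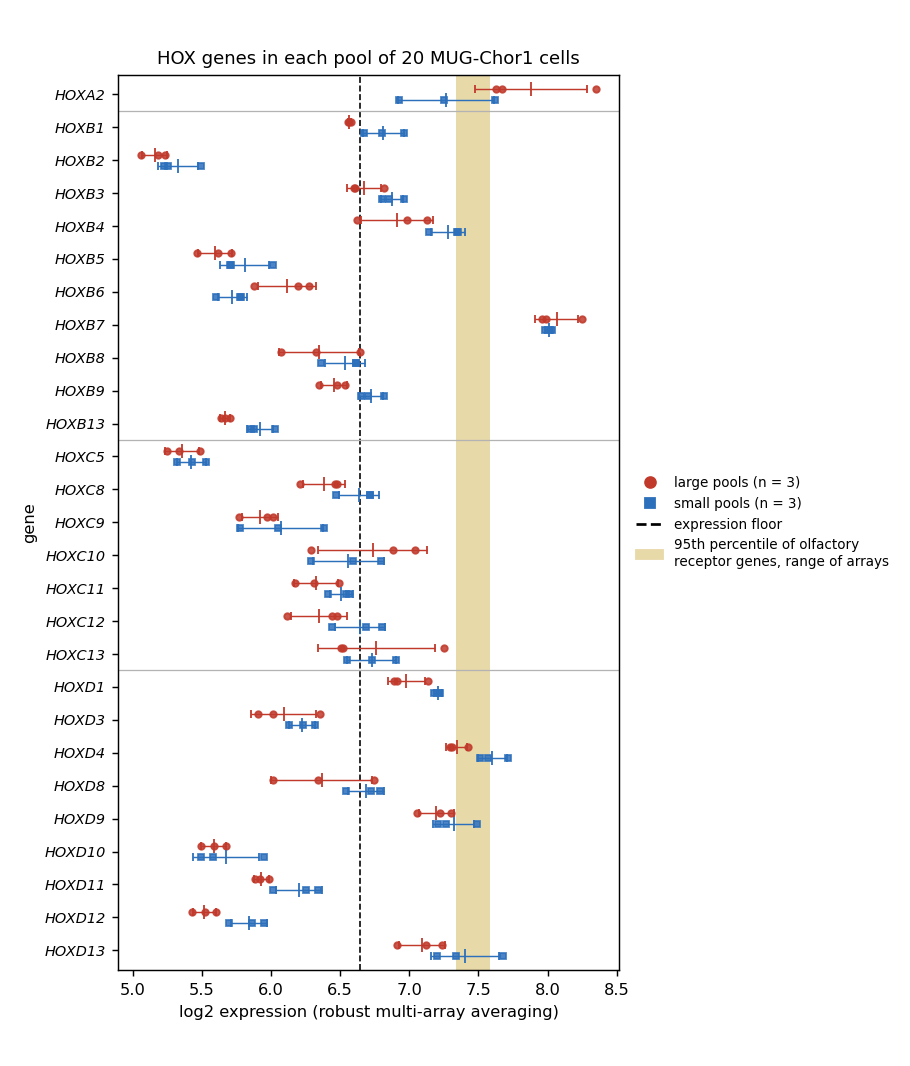
Log2 expression (horizontal axis) of the 27 *HOX* genes, 1 per row from *HOXA* at the top to *HOXD* at the bottom. Circles are large pools, squares small pools, ticks and bars the mean and SD (n = 3 pools); the dashed line is the expression floor (6.64) and the shaded band the range over arrays of the 95th percentile of olfactory receptor genes (7.34 to 7.58). *HOXB7* alone has all its points to the right of the band.

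A few genes lay close to the floor. *HOXC10*, which in the mouse acts in hindlimb motor neurons, had 7.04, 6.29 and 6.88 in large pools and 6.29, 6.80 and 6.59 in small pools, so that each phenotype had pools on both sides. *HOXB1*, a hindbrain gene, had 6.56, 6.57 and 6.58 in large pools, against 6.96, 6.81 and 6.67 in small pools, and here the floor separated the phenotypes. The same was true of *HOXB9*, a thoracic gene, with 6.48, 6.35 and 6.54 in large pools, against 6.82, 6.65 and 6.70 in small pools. *HOXD8*, on the trunk side of the cluster, had 6.75, 6.01 and 6.34 in large pools and 6.79, 6.55 and 6.72 in small pools, with overlap.

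The 2 phenotypes were then compared gene by gene. By limma, without the study's filter, 0 of 27 *HOX* genes passed an adjusted p of 0.05 with an absolute log2 fold change above 1. Those are the thresholds of the study's methods, and 0 of all 18404 genes passed them (0%). The study, which filtered genes first, reported *ALG11*, *UCHL3*, *TMEM144* and *PPP2CB* as differentially expressed. The adjusted p of the *HOX* genes ran from 0.323 to 0.948. At an unadjusted p under 0.05 were 5 of them, *HOXB6*, *HOXB9*, *HOXB13*, *HOXD4* and *HOXD12*, beside 14.8% of all genes. This count was 1 without large pool 2 (*HOXD8*, none of the 5), 1 without large pool 3 (*HOXD12*) and 1 without small pool 5 (*HOXB6*). It was 2 without small pool 6 and 3 without small pool 7. Without large pool 4 it was 5, namely *HOXB4*, *HOXB6*, *HOXB9*, *HOXD1* and *HOXD4*. The count was 6 with array weights and 6 with a robust variance trend. It was 2 with each array centred on its median (*HOXA2* and *HOXB6*) and 2 after quantile normalization (*HOXB6* and *HOXD12*). Among all genes at that limit 797 were higher and 1934 lower on the deposited scale, but 1207 higher and 718 lower once centred. For 26 of 27 genes the 95% interval of the log2 fold change lay within 1 of 0; the exception was *HOXA2*. In a pool of 20 cells, fewer cells that express a gene and less RNA per cell cannot be told apart.

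Small differences in 1 direction prevailed: 22 *HOX* genes had a lower and 5 a higher mean in large cells, with a median log2 fold change of -0.20. Among all genes 66.4% were lower, with a median of -0.11, so that most of the genes measured shared this direction. For all genes at or below the floor the median was -0.12 with 73.8% lower, and for olfactory receptor genes it was -0.09 with 62.4% lower. Array medians over all probe sets were 6.64 to 6.68 in large pools and 6.73 to 6.76 in small pools. With each array centred on its median 21 *HOX* genes were lower, and their median was -0.11 beside -0.03 for all genes.

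In 10 of 27 *HOX* genes the phenotypes did not overlap, against 27% of all genes and 17.1% of olfactory receptor genes. Of these, 8 were lower in large cells (21.6% of all genes were) and 2 were higher (5.48% of all genes). With centred arrays 5 were lower and 3 higher, where 19.4% of all genes did not overlap and 10.7% were lower without overlap. The 5 were *HOXB1*, *HOXB9*, *HOXB13*, *HOXD4* and *HOXD12*, and the 3 were *HOXA2*, *HOXB6* and *HOXB7*. The higher ones as deposited were *HOXA2* and *HOXB6*. *HOXB6*, a trunk gene beside *HOXB7*, had 6.28, 6.20 and 5.88 in large pools, against 5.79, 5.78 and 5.60 in small pools, all under the floor.
Lower in large cells without overlap as deposited were *HOXB1*, *HOXB4*, *HOXB9*, *HOXB13*, *HOXD1*, *HOXD4*, *HOXD11* and *HOXD12*. Of these, *HOXB4*, *HOXD1* and *HOXD11* overlapped with centred arrays and after quantile normalization. By ranks within each array, the same genes and *HOXB1* overlapped. *HOXB4*, which supports blood stem cells, had 6.99, 6.62 and 7.13 in large pools, against 7.35, 7.35 and 7.14 in small pools, the highest large pool lying just under the lowest small pool. *HOXB13*, the most caudal gene of its cluster and a prostate factor, had 5.70, 5.67 and 5.64 in large pools, against 5.85, 5.88 and 6.03 in small pools. *HOXD11*, which shapes the forearm, had 5.92, 5.88 and 5.99 in large pools, against 6.25, 6.01 and 6.34 in small pools.
The smallest unadjusted p among the *HOX* genes belonged to *HOXD12* with 5.52, 5.60 and 5.43 in large pools, against 5.95, 5.87 and 5.70 in small pools, a log2 fold change of -0.32 (interval -0.59 to -0.05, limma adjusted p = 0.323). *HOXB13*, *HOXD11* and *HOXD12* were under the floor in all arrays, so that these differences stand between values near background.

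**Figure D3:**
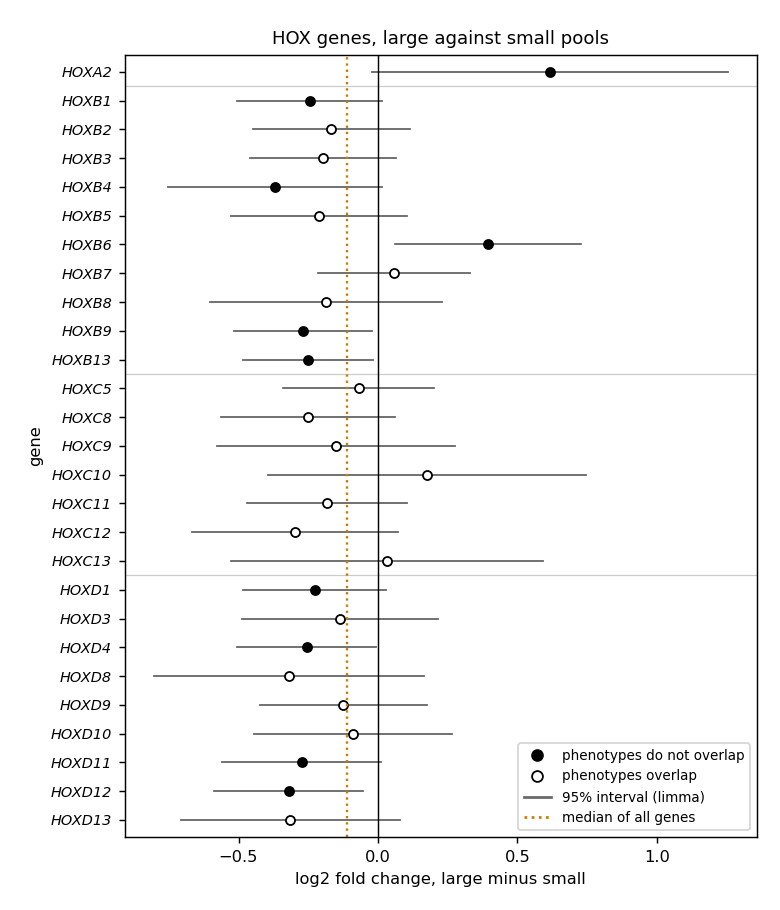
Log2 fold change of large minus small pools (horizontal axis) for the 27 *HOX* genes, each with its 95% interval by limma as a horizontal line, from 3 large and 3 small pools. Filled points are the 10 genes whose phenotypes do not overlap, the dotted line is the median of all genes (-0.11), and *HOXA2* is the gene with the highest value (0.62).

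**Figure D4:**
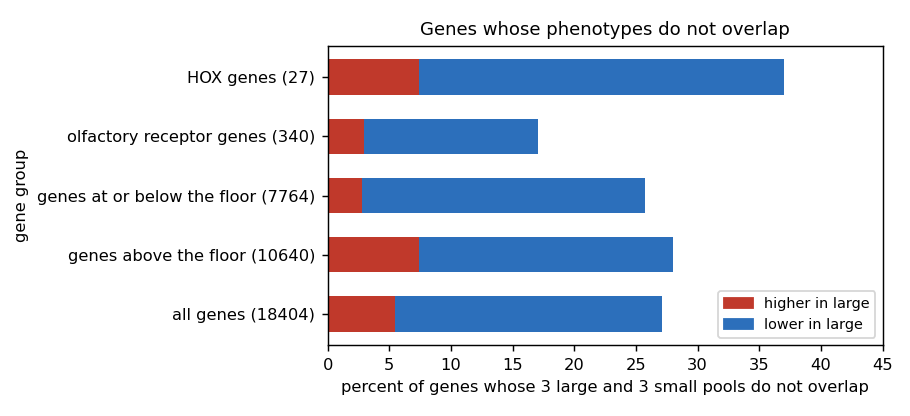
Percent of genes (horizontal axis) whose 3 large and 3 small pools do not overlap, split into genes higher and genes lower in large cells, for the gene groups named on the vertical axis with their number of genes. In each group the lower part is the larger one, for example 29.6% of *HOX* genes and 21.6% of all genes.

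The pools differed from each other in how often they held the extreme value. Of the 27 *HOX* genes 12 were lowest in large pool 3 and 12 highest in small pool 5, and large pool 4 was highest for 0 and small pool 5 lowest for 0. In the same arrays the median deviation of a gene from its own mean was -0.08 in large pool 3 and 0.08 in small pool 5 over all genes, and -0.16 in large pool 3 and 0.18 in small pool 5 over the *HOX* genes. Above the floor were 6 *HOX* genes in large pool 3 and 14 in small pool 5, and of all genes 53.1% in large pool 3 and 60.1% in small pool 5. The part of these array shifts in the *HOX* differences was not tested beyond the scalings given. The 12 *HOX* genes without values of their own above had overlapping phenotypes, with values from 5.06 (*HOXB2*, large pool 4) to 7.25 (*HOXC13*, large pool 2). The spread within a phenotype was small, with a median pooled SD of 0.15 for *HOX* genes and 0.18 for all genes.

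MicroRNA genes stand inside the clusters, and miR-196a is known to act on *HOXB8* messenger RNA. Probe sets annotated to 4 of them were set beside the *HOX* genes. Mature miR-196a-5p comes from 2 hairpins, *MIR196A1* beside *HOXB9* on chromosome 17 and *MIR196A2* in *HOXC* on chromosome 12. The mature sequences from RefSeq (GRCh38.p14) are shown first, with the seed, bases 2 to 8, in capitals, and then both hairpins with the mature stretch in capitals, since the hairpins differ outside it.
hsa-miR-196a-5p: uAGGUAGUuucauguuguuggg
hsa-miR-10a-5p: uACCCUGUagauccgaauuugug
MIR196A1, chr17:48632490-48632559, minus strand: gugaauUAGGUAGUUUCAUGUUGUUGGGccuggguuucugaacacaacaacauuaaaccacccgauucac
MIR196A2, chr12:53991738-53991847, plus strand: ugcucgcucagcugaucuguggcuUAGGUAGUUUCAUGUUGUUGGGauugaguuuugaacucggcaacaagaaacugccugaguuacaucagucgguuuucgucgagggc

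*MIR196A1* was above the floor in all 6 arrays, with 7.42, 8.02 and 7.36 in large pools and 7.80, 7.69 and 7.51 in small pools, and passed the olfactory receptor limit in 5. *MIR196A2* was above the floor in 0 arrays, with 5.22, 4.90 and 4.96 in large pools and 5.47, 5.13 and 4.81 in small pools. *MIR10A*, whose seed differs from that of miR-196a, lay at 2.92 to 2.97 in large pools and at 2.92 to 3.07 in small pools. *MIR10B*, in *HOXD*, lay at 2.96 to 3.25 in large pools and at 3.13 to 3.18 in small pools. The phenotypes overlapped for each of the 4. These probe sets do not measure the mature RNA, and which part of a primary transcript gave the signal is not known. *HOXB8*, singled out here after its values were seen, had 6.64, 6.07 and 6.32 in large pools and 6.62, 6.37 and 6.62 in small pools, above the floor in 1 array.

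HOX proteins bind DNA together with cofactors of the PBX, MEIS and PKNOX families. Of 9 listed cofactors 7 were measured, and *PBX3*, *PBX4* and *MEIS3* were above the floor in all arrays, as were 43.4% of all genes. *PBX3* had 9.18, 8.92 and 8.56 in large pools and 9.56, 8.84 and 9.39 in small pools, with overlap, and alone of the cofactors passed the olfactory receptor limit in all arrays. *MEIS2* had 6.74, 6.97 and 6.88 in large pools, against 6.49, 6.51 and 6.34 in small pools, so that its large pools were above and its small pools below the floor. Its log2 fold change was 0.41 (limma adjusted p = 0.323). *MEIS3* had 7.11, 7.06 and 7.33 in large pools, against 7.46, 7.46 and 7.57 in small pools, and *PKNOX2* had 6.62, 6.57 and 6.60 in large pools, against 6.95, 6.84 and 6.81 in small pools. For both the phenotypes did not overlap. By limma 0 of 7 passed, while at an unadjusted p under 0.05 *MEIS2* was higher (4.33% of all genes were) and 3 were lower (10.5% of all genes), *PBX4* with *MEIS3* and *PKNOX2*.

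**Figure D5:**
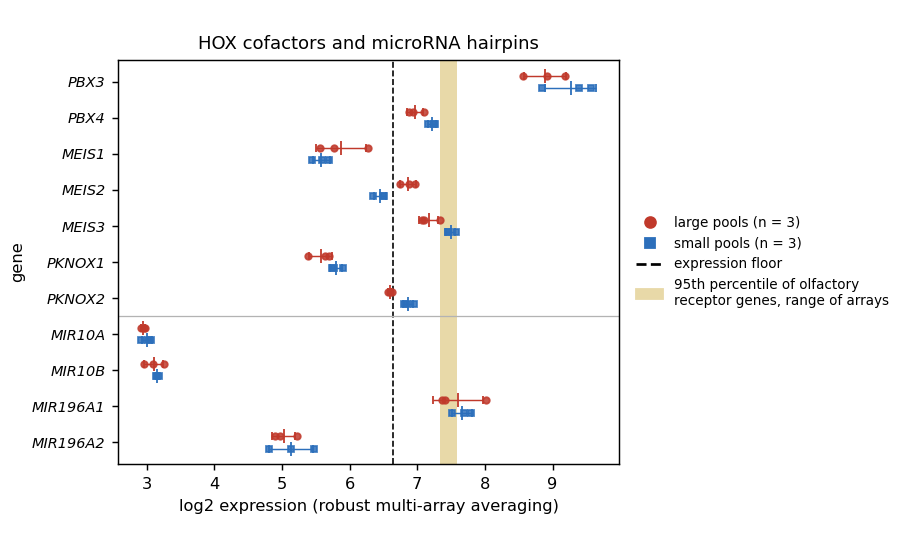
Log2 expression (horizontal axis) of 7 HOX cofactors and of 4 microRNA hairpins of the clusters, with circles for large pools, squares for small pools, ticks and bars for mean and SD (n = 3 pools), the floor as a dashed line (6.64) and the band of olfactory receptor limits. *PBX3* lies to the right of the band in all pools, and the large and small pools of *MEIS2* lie on opposite sides of the floor.

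Factors that set up *HOX* expression were read in the same way. Of 20 measured chromatin regulators, 15 were above the floor in all arrays, beside 43.4% of all genes. Only 4 passed the olfactory receptor limit in all arrays, *EED*, *SUZ12*, *KMT2A* and *ASH2L*, beside 18.9% of all genes. Among the 15 were the Polycomb genes *EZH2*, *EED*, *SUZ12*, *JARID2*, *RING1*, *PCGF2*, *CBX2* and *PHC1*, which act to silence *HOX* genes. The rest of the 15 were the methyltransferase gene *KMT2A* with *ASH2L* and *WDR5*, which keep *HOX* genes active, the demethylase genes *KDM6A* and *KDM6B*, *CTCF* and *DOT1L*. By limma 0 of 20 passed and 0 had an unadjusted p under 0.05, with *PHC2* (log2 fold change -0.34), *WDR5* (0.50) and *DOT1L* (-0.25) having the smallest p.
Of 22 measured upstream genes 6 were above the floor in all arrays, beside 43.4% of all genes. They were *CDX2*, *RARG*, *RXRA*, *ALDH1A3*, *TBX6* and *MSGN1*. The olfactory receptor limit was passed in all arrays by 0 of the 22, beside 18.9% of all genes. None of the 22 passed by limma, while at an unadjusted p under 0.05 there were 5 lower genes and 0 higher, beside 10.5% of all genes lower and 4.33% higher, shares whose order turns round once arrays are centred. *CYP26B1*, which breaks down retinoic acid, had 5.80, 5.83 and 6.06 in large pools, against 6.32, 6.50 and 6.31 in small pools, all below the floor. The other 4 were *WNT3A* (-0.34), *RXRG* (-0.44), *NR6A1* (-0.25) and *CDX2* (-0.30), of which *CDX2* regulates caudal *HOX* genes. Its values were 7.63, 7.45 and 7.51 in large pools, against 7.88, 7.95 and 7.67 in small pools. *GDF11*, a trigger of the trunk to tail transition in the mouse, was above the floor in 0 arrays.

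Genes of limb and head position were not separated by the floor. Of 6 limb genes, *TBX2* and *TBX4*, a hindlimb factor, were above it in all arrays and *PITX1*, another hindlimb factor, in 0. Of 8 head genes 5 were above it in all arrays, *OTX1*, *OTX2*, *EMX1*, *GBX2* and *SIX3*. Of all genes 43.4% were. None of either list passed the olfactory receptor limit in all arrays. By limma 0 of both lists passed, and *TBX2* (-0.31) and *SIX3* (-0.24) were lower at an unadjusted p under 0.05, as were 10.5% of all genes. Next by p were *TBX4* (-0.24) and *ISL1* (-0.21) of the limb list and *EN2* (-0.31) and *EN1* (-0.18) of the head list.

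Among 11 genes beside the clusters *LNPK*, which stabilises junctions of the endoplasmic reticulum and lies next to *HOXD13* and *EVX2*, had the smallest p. It had 8.93, 8.80 and 8.70 in large pools, against 7.95, 7.06 and 8.21 in small pools, without overlap and with a log2 fold change of 1.07 (limma adjusted p = 0.323). *EVX2*, the homeobox gene between them, went the other way with 7.12, 6.77 and 7.12 in large pools, against 7.47, 7.35 and 7.40 in small pools (log2 fold change -0.41), and *PRAC1*, beside *HOXB13*, had -0.35 and was above the floor in 0 arrays. Above the floor in all arrays were 8 of the 11, beside 43.4% of all genes. They were *LNPK*, *EVX2*, *SKAP2*, *HIBADH*, *CALCOCO1*, *SMUG1*, *MTX2* and *SNX10*, of which only *SKAP2* passed the olfactory receptor limit in all arrays. By limma 0 of the 11 passed, and only *LNPK*, *EVX2* and *PRAC1* had an unadjusted p under 0.05, where 14.8% of all genes did. Of the antisense RNAs, *HOXB-AS3* was above the floor in all arrays, with a log2 fold change of -0.17, and *HOXA-AS2* in 1 array, small pool 5, with 6.71 there and 5.45 to 5.65 in the other pools. The lists hold genes of different loci, and those of 1 cluster lie close together, so the genes are not independent of each other.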

How the data were processed

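The deposited table holds log2 values for each Affymetrix Human Gene 1.0 ST array, which the authors made by robust multi-array averaging, which subtracts background, equalizes the arrays and summarizes the probes of each probe set; 0 columns were left unused. Their methods name the affy package and the processing notes Affymetrix Expression Console, and no source used here names the chip definition file. Of 32321 probe sets 19158 had 1 gene symbol in the platform annotation, and the brightest per gene was kept (18404 genes). Large minus small was fitted with limma 3.58.1 in R 4.3.3 on all of them, with no covariate and Benjamini-Hochberg adjustment; the study's filter has no stated limits and was an alternative. The fit was tested on simulated data. The methods describe quadruplicate pools; 3 per phenotype were analysed here, and their number limits the precision. Described with values are *HOX* genes above the floor in all arrays, with an unadjusted p under 0.05, without overlap or among the 2 nearest the floor on each side, and, of each related list, the 3 genes with the smallest p; related genes above the floor in all arrays are named. Outside this rule, *PBX3*, *HOXB8*, *PITX1*, *GDF11*, *CDX2* and the microRNAs were picked out with their values in view. *NR6A1* was given for its unadjusted p under 0.05. The members and lists were chosen with earlier results of these data known, the microRNAs after the annotation was seen, and motifs after the values. Alternatives covered the floor, filters, scaling, probe set, variance model, array weights and each pool left out.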

Additional observations from a re-analysis of the deposited data

How the results depend on the processing

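No alternative called a *HOX* gene or a related gene by limma, and over the settings that kept *HOX* genes their smallest adjusted p was 0.299 to 0.491. With the study's filter at limits set here (above log2(100) in at least 25% of arrays, interquartile range above 0.5), 2 of all genes were called, but 0 *HOX* genes remained, so that the counts of *HOX* genes without overlap and at an unadjusted p under 0.05 were 0. With the floor as the only filter 15 *HOX* genes remained, 6 without overlap (28.5% of the 11694 genes kept) and 1 at an unadjusted p under 0.05 (1757 of the genes kept). The number above the floor in all arrays rested on the floor itself: it was 20 with log2(50) (79.3% of all genes), 1 with log2(200) (16.3%), 1 with the olfactory receptor limit (18.9%), 8 with centred arrays (44.5%) and 6 to 7 with 1 pool left out. Quantile normalization and centring of each array left 2 *HOX* genes each at an unadjusted p under 0.05. Of all genes at that limit, quantile normalization gave 834 higher and 1086 lower and centring 1207 higher and 718 lower, beside 797 higher and 1934 lower without either. Centred, 3 *HOX* genes were higher and 5 lower without overlap, beside 19.4% of all genes in either direction. Ranks within each array, added after the data were seen, left 6 *HOX* genes without overlap, all 6 among the 10 and in the same direction, beside 20.1% of all genes. With 1 pool left out the number at an unadjusted p under 0.05 was 1 to 5, and the log2 fold change of *HOXB7* was -0.033 to 0.11, below 0 without large pool 3. Of the values for single named *HOX* genes under all alternatives, the other 205 kept their sign. Their adjusted p by limma stayed above 0.05 throughout, as it did for every *HOX* gene. The genes at an unadjusted p under 0.05 changed between settings. No paired analysis was possible because the phenotypes share no replicate numbers.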
